A study of Rattus norvegicus with 12 samples.

Results

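Gfap (ENSRNOG00000002919), the gene of glial fibrillary acidic protein, was followed through all 12 libraries as 1 of the 32662 genes in the deposited count tables. Poly(A) RNA was sequenced from spinal cord dorsal horn (SC) and from the trigeminal nucleus caudalis (TNC), the brainstem counterpart of the dorsal horn for pain and temperature from the head. Both regions were cut by laser capture from 14 µm sections of each of 6 male Wistar Han rats aged 10 weeks, R101 to R106. The rats were naive and untreated, all were killed 2 weeks after arrival, and all were perfused with cold saline under pentobarbital with lidocaine. The 6 SC and 6 TNC libraries therefore form 6 pairs, each from 1 animal. Gfap was singled out with its contrast between the regions already known, so its levels and ratios between SC and TNC are a description and carry no test.

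Glial fibrillary acidic protein is the main intermediate filament of mature astrocytes, where it forms a cytoskeletal network together with vimentin. It is the classical marker of astrocytes in tissue sections, although not every astrocyte stains for it. Fibrous astrocytes of white matter are richer in the protein than protoplasmic astrocytes of grey matter, and its gene is induced when astrocytes become reactive after injury or inflammation. In the spinal dorsal horn and in the trigeminal nucleus, Gfap is widely used as a readout of astrocyte reaction in models of chronic pain, so its level in untreated animals is the baseline of such readouts.

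Gfap RNA was several-fold more abundant in the spinal dorsal horn than in the trigeminal nucleus caudalis in each of the 6 rats. The SC libraries held 29136 reads of Gfap in R101, 33798 in R102, 38806 in R103, 42509 in R104, 41897 in R105 and 34474 in R106. The TNC libraries of the same rats held 6054, 5868, 8198, 7329, 10149 and 5747 reads. No SC library came near a TNC library in raw reads, although total reads on genes were of like size, from 11563283 to 14591508 in SC and from 11223405 to 12281556 in TNC.

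To compare libraries, reads were expressed as CPM, counts scaled to library size with factors from the trimmed mean of M values (TMM). In SC the Gfap level was 2133 CPM in R101, 2647 in R102, 3339 in R103, 3351 in R104, 3501 in R105 and 2343 in R106, with a mean of 2886 ± 586 CPM (SD, n = 6). In TNC it was 508 CPM in R101, 499.7 in R102, 757 in R103, 627 in R104, 841 in R105 and 474 in R106, with a mean of 618 ± 152 CPM (SD, n = 6). The ranges of the regions did not overlap. The lowest SC level, in R101, was 2.54 times the highest TNC level, in R105. Ranges that part in this direction were found for 5.54% of the 13833 tested genes, and 14% of them were lower in TNC in 6 of 6 rats. In edgeR's quasi-likelihood fit of rat and region, 30.3% of genes passed an adjusted p of 0.05, 15.3% lower in TNC and 15% higher. Gfap was selected by this contrast, so nothing is read from these shares.

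**Figure D1:**
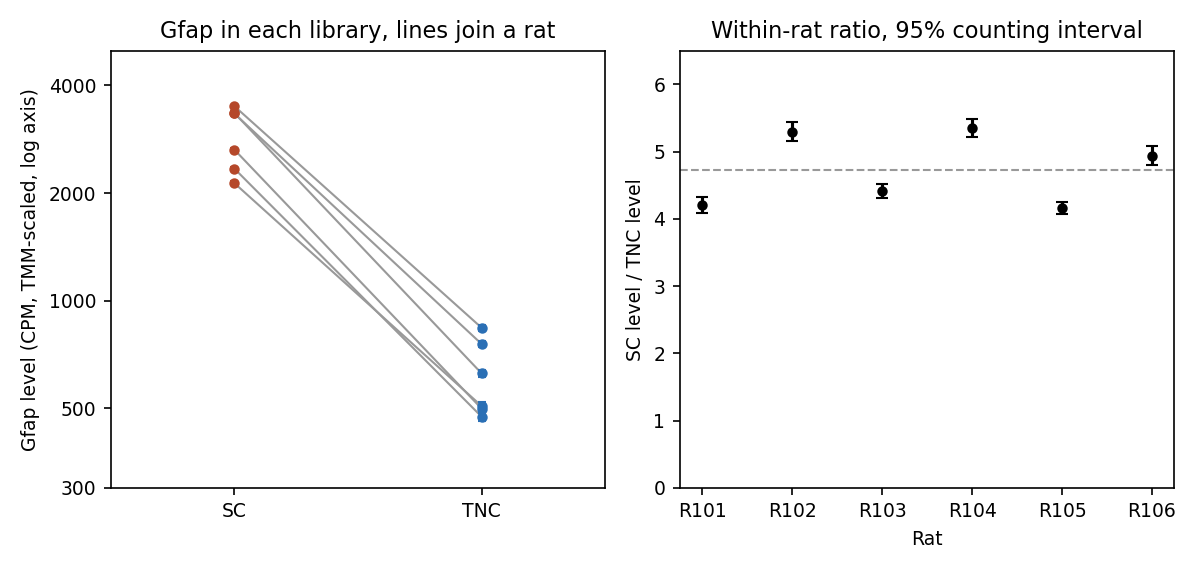
Left, the Gfap level of each library in CPM on a log axis, SC in red and TNC in blue, with grey lines joining libraries of the same rat and bars for the 95% counting interval, mostly hidden by the points. Right, the ratio of the SC to the TNC level in each rat with its 95% counting interval and the mean as a dashed line. All 6 lines descend, and the ratios lie between 4.16 and 5.35.

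Within rats the SC level was 4.20 times the TNC level in R101 (95% exact binomial counting interval 4.09 to 4.32), 5.30 times in R102 (5.15 to 5.45) and 4.41 times in R103 (4.31 to 4.52). It was 5.35 times in R104 (5.22 to 5.48), 4.16 times in R105 (4.08 to 4.26) and 4.94 times in R106 (4.80 to 5.08). Rats R102, R104 and R106 thus had the larger ratios and R101, R103 and R105 the smaller ones, and the counting intervals of these sets of rats did not overlap. Counting error, which is all these intervals cover, was therefore small beside the spread between rats. On the log2 CPM scale the TNC level was lower by a mean within-rat difference of -2.23 with an SD of 0.16 and a standard error of 0.07 (n = 6), which is a ratio of 4.70. The difference in absolute level was less even, from 1626 CPM in R101 to 2724 CPM in R104.

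Ordered from low to high, the 12 levels began with the TNC libraries of R106, R102, R101, R104, R103 and R105, followed by the SC libraries of R101, R106, R102, R103, R104 and R105. Neighbours in this order had separate 95% Poisson counting intervals except for R102 and R101 in TNC and for R103 and R104 in SC. Levels of rats within a region cannot be set against a replicate error of the rat, because each rat gave 1 library per region. In tissue of mixed cells, fewer astrocytes and less Gfap RNA per astrocyte cannot be told apart. Transcript forms of Gfap are summed in these counts.

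Gfap was at once abundant and strongly different between the regions. It took 0.292% ± 0.0583 of all gene reads in SC and 0.0609% ± 0.0148 in TNC (SD, n = 6). Ordered by reads, which reflect transcript length as well as level, it stood between place 13 and place 29 in the SC libraries and between place 110 and place 256 in the TNC libraries. Among the 87 genes averaging 1000 CPM or more over all 12 libraries, its log2 CPM difference of -2.23 was the largest decrease in TNC. The next largest decrease was -0.59 and the largest increase 0.70. Gfap reached that average only through SC, since its mean in TNC was 618 CPM. Its place in this order rests on the contrast it was chosen by and carries no test. Over all tested genes, 59 had a larger mean decrease, and the median log2 difference was -0.0045.

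Of the 13833 tested genes, 80 (0.578%) were at least 4-fold lower in TNC at an adjusted p under 0.05 (edgeR). Gfap was among them, but it had been chosen with this contrast known, so its membership carries no test. Gfap was the only one of the 80 with a mean above 100 CPM, at 1752 CPM, and the next had 83.03 CPM. The 80 genes together took 0.431% ± 0.0693 of gene reads in SC and 0.0775% ± 0.0195 in TNC (SD, n = 6). Gfap alone made up 67.4% ± 3.81 of their reads in SC and 78.8% ± 3.95 in TNC. By reads, most of what this set of genes contributed to the SC libraries was thus Gfap.

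**Figure D2:**
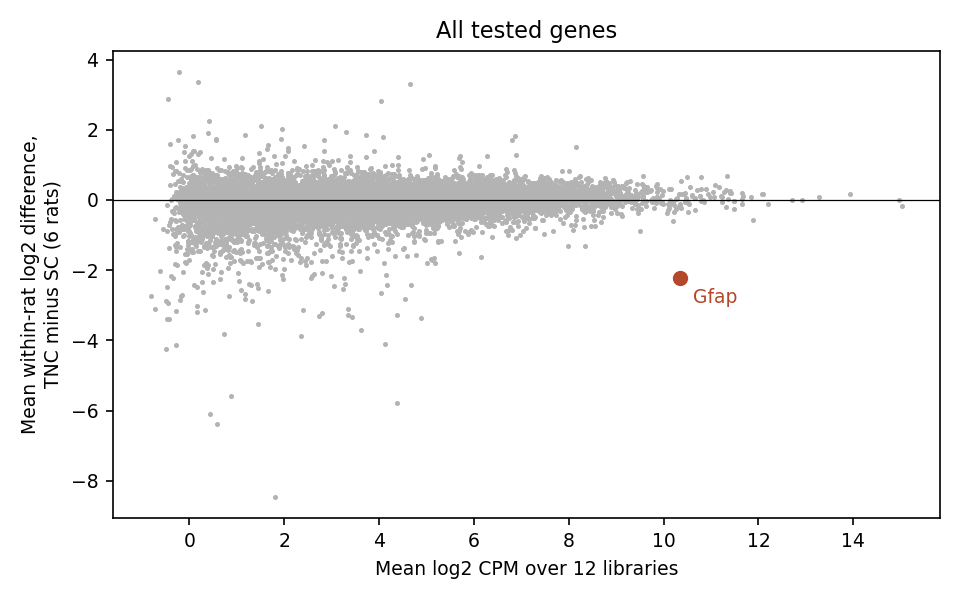
Each grey point is 1 of the 13833 tested genes, with its mean log2 CPM over 12 libraries on the horizontal axis and the mean within-rat log2 difference, TNC minus SC, on the vertical axis; Gfap is in red. Gfap lies at -2.23, well below other genes of its level, whereas genes with larger decreases lie toward the left, at low levels.

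Gfap also varied between the libraries of a region more than most genes of like level. The contrast between regions does not use this property. Each rat gave 1 library per region, so differences between animals and between captures or libraries cannot be told apart in this spread. The highest SC level was 1.64 times the lowest, and the highest TNC level 1.77 times the lowest. The SD of log2 CPM over the 6 rats was 0.30 in SC and 0.35 in TNC. In SC, the 45 other genes within 2-fold of the Gfap level had a median SD of 0.09 and a highest of 0.27, so 0 of 45 reached that of Gfap. In TNC, the 414 genes within 2-fold of the Gfap level there had a median SD of 0.11 and a highest of 0.53. Of these, 2 of 414 reached the SD of Gfap. The count in SC was 2 of 40 without R101, the rat with the lowest SC level, and the count in TNC was 7 of 455 without R105, the rat with the highest TNC level. It was 1 of 413 without R104, and 4 of 414 when libraries were scaled by their totals alone. Among all genes of at least 100 CPM in a region, 12 of 1960 were more variable than Gfap in SC and 26 of 2037 in TNC. These are counts over genes, which are not independent, and no test was made of them.

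**Figure D3:**
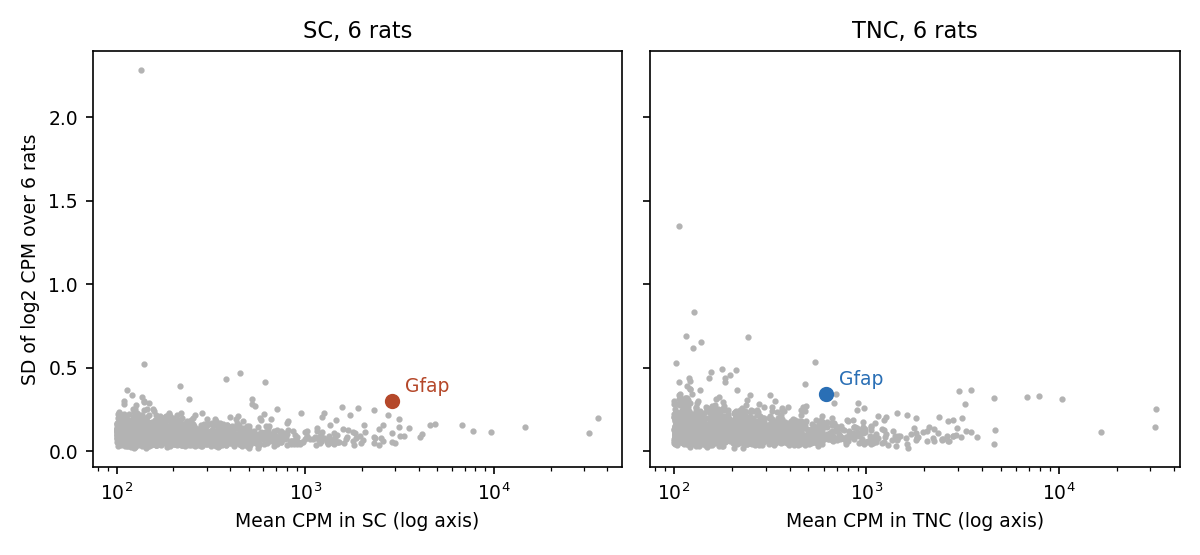
The SD of log2 CPM over the 6 rats against the mean CPM of the region on a log axis, for genes of at least 100 CPM in SC (left) and in TNC (right). Gfap, the large coloured point, has an SD of 0.30 in SC and 0.35 in TNC and lies near the upper edge of genes of its level in both panels.

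The spread of Gfap between rats was not shown to differ between the regions. The test for equal variances of paired values, the correlation of the within-rat mean with the within-rat difference, gave a Pearson r of 0.26 (exact two-sided permutation p = 0.625, n = 6 rats) and a Spearman rho of 0.20 (exact permutation p = 0.714). With the 2 rats farthest from the median mean level left out, R101 and R105, r was 0.44. With 6 rats this does not show that the spreads were equal.

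Rats with more Gfap in the dorsal horn tended to have more in the trigeminal nucleus as well. R103, R104 and R105 lay above the mean of their region in both regions, and R101, R102 and R106 below it in both. Relative to the region mean of log2 CPM, R105 was higher by 0.30 in SC and by 0.48 in TNC, and R103 by 0.24 and 0.33. R104 was higher by 0.24 in SC and by 0.06 in TNC. R101 deviated by -0.41 in SC and -0.25 in TNC, R106 by -0.27 and -0.35, and R102 by -0.10 and -0.27. Pearson's r between the regions was 0.88 (exact two-sided permutation p = 0.0333, n = 6 rats) and Spearman's rho 0.77 (exact permutation p = 0.103). Adjusted by Benjamini and Hochberg's method over the 4 relations computed, the p-values of these exact tests were 0.133 and 0.206, so the relation did not pass the correction. It was 0.90 among the 4 rats left without R101 and R106, the rats farthest from the median SC level. In SC the levels left a gap between 2647 and 3339 CPM, with 3 rats on either side, and 3 rats are too few for a correlation within either set. Libraries of 1 rat share the animal and its perfusion, and whether the rats or their handling differed was not tested.

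**Figure D4:**
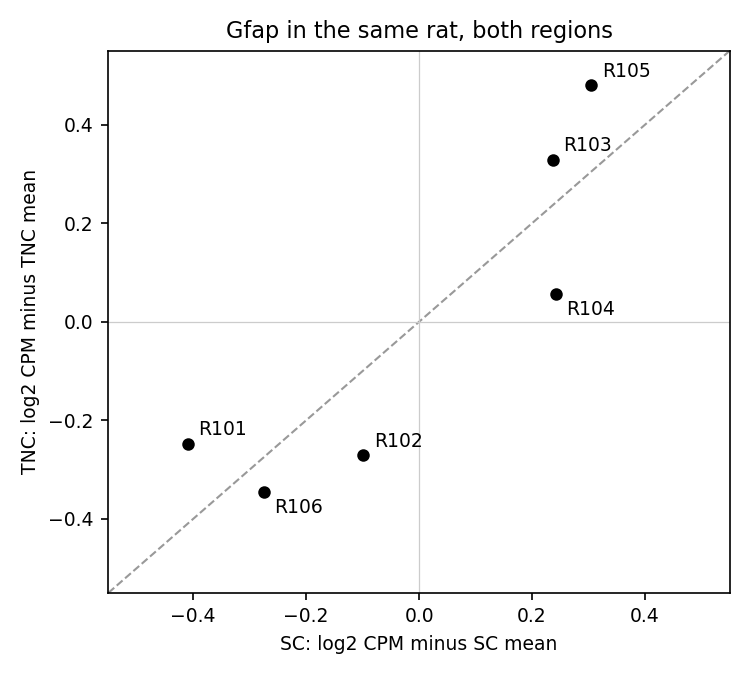
Each point is 1 rat, with its Gfap log2 CPM minus the mean of the 6 SC libraries on the horizontal axis and minus the mean of the 6 TNC libraries on the vertical axis; the dashed line marks equal deviations. R103, R104 and R105 lie in the upper right and R101, R102 and R106 in the lower left.

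Several library measures moved with region beside Gfap. Alignments outside annotated genes made up 14.5% to 15.7% of all alignments in SC and 12.5% to 15.2% in TNC, and the share was lower in TNC in every rat. Also lower in TNC in every rat were the share of alignments to several places (12.7% to 13.4%, against 13.5% to 13.8% in SC), the share of ambiguous alignments (1.44% to 1.67%, against 1.61% to 1.78%) and the number of genes detected (16449 to 17070, against 17262 to 17536). The number of genes detected was not corrected for total gene reads, which were lower in TNC in every rat except R105. The gap in alignments outside genes was smallest in R102, at -0.47 percentage points, and averaged -2.11 in the other 5 rats. Gfap in R102 differed by -2.40 on the log2 CPM scale, beyond the mean of all rats, and without R102 the mean difference was -2.20. Over rats, the within-rat difference in this share and that in Gfap gave a Pearson r of -0.61 (exact permutation p = 0.128, adjusted p = 0.256, n = 6) and a Spearman rho of -0.77 (exact permutation p = 0.103, adjusted p = 0.206). Without R102 and R105 r was -0.31. The difference in total gene reads gave r = 0.27 (exact permutation p = 0.664, adjusted p = 0.664, n = 6) and rho = 0.37 (exact permutation p = 0.497, adjusted p = 0.663). Without R105 and R106 that r was -0.37, the opposite sign. These correlations concern how the differences varied between rats. They cannot show the part of a measure that moved with region in the mean Gfap difference. That part was not tested for any of the library measures.

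The genes most like Gfap were sought among 9539 tested genes averaging 10 CPM or more, by the Pearson correlation of log2 CPM with Gfap. These correlations are descriptions of 12 libraries that come in pairs from 6 rats and share their scaling, and the highest of so many are high in part through selection. The files pair no identifier with a symbol, so these genes are given by identifier. Subtracting each region's mean leaves the variation between libraries of a region. After that, ENSRNOG00000002520 followed Gfap most closely (r = 0.90). Its levels ran from 81.9 CPM in R101 to 128 CPM in R105 in SC. In TNC they ran from 83.8 CPM in R106 to 115 CPM in R103. Like Gfap, this gene was low in R101 and R106 and high in R103 and R105 in both regions. The next was ENSRNOG00000014750 (r = 0.89), with a mean of 26.6 CPM. Neither was called between regions: the adjusted p was 0.813 for ENSRNOG00000002520, with a fitted log2 fold change of -0.02 and 3 of 6 rats lower in TNC, and 0.486 for ENSRNOG00000014750, with 0.09 and 4 of 6 rats higher in TNC (edgeR).

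The most opposite course within the regions was that of ENSRNOG00000043350 (r = -0.91). Its SC level was 26.8 CPM in R103 and 36.9 CPM in R106. Its TNC level was 29.2 CPM in R105 and 47.5 CPM in R106. The gene was highest in R106, where Gfap was lowest in TNC. It was higher in TNC, with a fitted log2 fold change of 0.28 (SE of the within-rat differences 0.06, adjusted p = 0.0176, edgeR), in 5 of 6 rats. The call was lost without R103, R104 or R106 (adjusted p = 0.0507, 0.0535 and 0.0603, edgeR), and with no block for the rat the adjusted p was 0.0792. ENSRNOG00000021175, with a mean of 298 CPM, came next (r = -0.87) and was not called between regions (log2 fold change -0.04, adjusted p = 0.620, edgeR, 3 of 6 rats lower in TNC). With any 1 rat left out, these 4 correlations stayed between 0.86 and 0.96, 0.87 and 0.93, -0.95 and -0.87, and -0.92 and -0.82, in the order named. In the same order they were 0.96, 0.90, -0.93 and -0.77 in SC alone (n = 6). In TNC alone they were 0.86, 0.90, -0.89 and -0.95 (n = 6). The genes had been chosen on these same libraries, so these ranges carry no test.

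Without subtraction of the region means, the likeness mostly reflects the step between SC and TNC. The 2 genes with the highest correlation over all 12 libraries were ENSRNOG00000019573 and ENSRNOG00000016592, both with r = 0.98. ENSRNOG00000019573 had 34.3 to 88.5 CPM in SC and 8.17 to 13.2 CPM in TNC, a mean log2 difference of -2.42, close in size to that of Gfap at a level far lower. ENSRNOG00000016592 had 434 to 527 CPM in SC and 259 to 317 CPM in TNC, a mean log2 difference of -0.74, a much smaller step than that of Gfap. Within SC alone its correlation with Gfap was 0.90 (n = 6), and it was highest in R105, like Gfap. Within TNC alone the correlation was 0.57 (n = 6), and it was highest in R104, whereas Gfap was highest in R105. ENSRNOG00000019573 and ENSRNOG00000016592 had been chosen by a measure that contains the contrast between regions, so their differences carry no test. After the region means were subtracted their correlations with Gfap were 0.77 and 0.73.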

How the data were processed

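The deposited files hold raw read counts per Ensembl rat gene, 1 file per library. Per the submitters' processing notes, the tools were STAR, an aligner, and HTSeq, a read counter. For both, versions, options, strandedness, build and gene annotation are not given in the sources used. The summary lines that end each file were kept out of library sizes and of the tests of genes, and gave the shares of alignments outside genes, to several places and ambiguous. The RefSeq gene table at hand matched 0 of the identifiers, so the name of Gfap comes from the choice of the gene, the region labels were not checked against markers, and the lists of astrocyte, filament and other cell type genes were not analysed here. In that table (assembly GRCr8) 0 other genes overlap Gfap.

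Genes were filtered with filterByExpr (minimum count 10), libraries were TMM-scaled, and a prior count of 2 went into log2 CPM. The call of each gene came from edgeR's quasi-likelihood test with rat and region over all 12 libraries (5 residual degrees of freedom, Benjamini-Hochberg adjusted p under 0.05). It was first tried on simulated counts with 200 changed genes and no effect of the rat. That trial could not check the block for the rat or the share of genes called here. The rat is the replicate and the block, because both regions came from each animal. Deviations from the region means correlated between 0.14 and 0.20 across genes within a rat and at most 0.05 between rats. Libraries of a region differed by more than sampling noise (chi-square per degree of freedom at least 6.50). Correlations over rats used all 720 pairings. The relations with library measures and the counts of other genes as variable as Gfap were added after seeing the data. Genes named for likeness to Gfap are the 2 highest and 2 lowest correlations with region means subtracted and the 2 highest without. The gene, the lists and the tests were chosen with earlier results of these data known. Versions were edgeR 4.0.16, DESeq2 1.42.0 and limma 3.58.1 under R 4.3.3.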

Additional observations from a re-analysis of the deposited data

Results flagged for a closer look

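In 19 sets of 6 values searched for a distant library, 1 such library was found, and chance alone gives about 1 in 20 sets. In the TNC library of R102, 15.2% of alignments lay outside annotated genes, against 12.5% to 13.1% in the remaining TNC libraries. Its Gfap level, 499.7 CPM, lay within the range of the other TNC libraries, and the mean log2 difference of Gfap was -2.20 without R102. None of the Gfap levels or differences stood out in this way.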

How the results depend on the processing

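The log2 difference of Gfap lay between -2.28 and -2.20 in all 16 alternatives. These were RLE, upper-quartile and no scaling factors, a prior count of 0.25, thinning to equal totals, totals without the 10 most abundant other genes, pooled reads, the fits of edgeR and DESeq2, and each rat left out. In edgeR the fitted value was -2.23 with the replicate block and -2.22 with no replicate block. The number of genes that differed, 4192, was 3627 with no replicate block and between 3406 and 4190 over all 12 alternatives, limma voom included. Of the 4 genes named for their likeness within regions, ENSRNOG00000043350 lost its call with no replicate block (adjusted p = 0.0792, edgeR). The others were not called with the block or without it. The correlation of Gfap between regions was 0.87 to 0.88 under the other scalings. It was 0.90 without the 2 rats farthest from the median SC level, with an exact permutation p of 0.167, in a design of 4 rats that cannot pass the threshold. The set of genes at least 4-fold lower in TNC numbered 76 to 87 with a rat left out, and Gfap made up 66.5% to 69.9% of its SC reads. The planned counts over astrocyte and filament lists were not run, since no identifier could be paired with a symbol. Alternatives for the likeness, the spread and the 4-fold set were chosen after seeing the data.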
